A study of Equus caballus with 68 samples.

Results

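The genes followed here are 10 components of the NF-κB system in equine bone marrow mononuclear cells (BMNC): the canonical subunits RELA (Ensembl gene ENSECAG00000013763), NFKB1 (ENSECAG00000015042) and REL (ENSECAG00000003277), the non-canonical subunits NFKB2 (ENSECAG00000019593) and RELB (ENSECAG00000020898), the regulators NFKBIA (ENSECAG00000023420), NFKBIZ (ENSECAG00000011496) and TNFAIP3 (ENSECAG00000009626), and the kinases CHUK (ENSECAG00000006588) and IKBKB (ENSECAG00000002263). They are defined by their gene symbols. Each symbol had 1 entry among the 30371 entries of the table, and all 10 were among the 14570 genes with enough signal to be tested.

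NF-κB proteins wait in the cytoplasm, held there by inhibitors of the IκB family. In the canonical pathway, cytokine or Toll-like receptors activate a kinase complex in which IKBKB is the main catalytic subunit, the inhibitor NFKBIA is degraded, and dimers of RELA or REL with the NFKB1 product p50 enter the nucleus and switch on inflammatory genes, among them NFKBIA and TNFAIP3, which shut the signal off again. In the non-canonical pathway, receptors such as CD40 or RANK act through the kinase MAP3K14 and CHUK, the NFKB2 product p100 is processed to p52, and p52 pairs with RELB, a route known from lymphoid organ development and from osteoclast and dendritic cell differentiation.

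RNA was sequenced from 8 adult Thoroughbred horses, 2 mares and 6 geldings aged 3 to 9 years. BMNC, taken by density gradient and therefore a mixture of marrow cell types, were sampled uncultured (0 hours, 8 libraries) or after culture in the horse's own normal synovial fluid (SF) or in its own inflamed synovial fluid (ISF), which was drawn from joints injected with lipopolysaccharide. SF came from middle carpal joints and ISF from radiocarpal joints, so inflammation and the joint sampled cannot be told apart. More of the same fluid was added every 48 hours. There was 1 library per horse, fluid and time, with 7 horses per fluid after 48 hours, 8 after 96 hours or 6 days and 7 after 10 days, 68 libraries in all, and replicates are separate horses. No culture without synovial fluid was analysed here, and each fluid was compared with the other and with uncultured cells. Levels are GeTMM, a measure of reads per kilobase that is also scaled from library to library and can be compared between genes as well as between samples. A gene was called at an FDR (Benjamini-Hochberg, limma) under 0.05 over all tested genes, and log2 changes are on the log2(GeTMM + 1) scale and are given ± SE.

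The libraries held between 15.7 M and 36.0 M reads on genes (M, 1e+06 reads), with a median of 22.3 M. The day 6 SF library of the horse Moon stood apart, since its GeTMM values summed to 2321940 against 817795 to 1458340 in the other libraries. The ISF libraries labelled Dealings and Dreamer at 96 hours each resembled the other horse more than their own, which changes comparisons within horses but not the group values. Summed macrophage markers (all 7 listed had an entry) lay at 184 to 307 GeTMM in uncultured cells and at 7548 GeTMM or more in every cultured library. Summed neutrophil precursor markers (6 of 8 had an entry) lay at 11356 to 20997 GeTMM in uncultured cells, at 819 to 4329 at 48 hours in SF and at 1087 to 6083 at 48 hours in ISF. T cell markers (all 5) summed to 127 to 321 GeTMM in uncultured cells and at 10 days to 23.5 to 199 in SF and 4.33 to 14.8 in ISF. Summed monocyte markers (2 of 4 had an entry) had a median of 707 GeTMM at 0 hours. In SF and ISF it was 767 and 622 at 48 hours, 243 and 302 at 96 hours, and 53.0 and 111 at 10 days. Dendritic cell markers (all 6) summed to 38.2 to 64.1 GeTMM at 0 hours. At 10 days they summed to 92.3 to 238 in SF and 66.7 to 109 in ISF. Stromal markers (all 5) summed to 0.406 to 4038 GeTMM in SF, highest in Lurie, and 0.123 to 49.2 in ISF at 10 days. No marker of these lists was at 0 throughout a group. Cell types thus changed together with the fluid and the time, and in bulk RNA fewer cells of a type and less RNA per cell cannot be told apart. The part of cell composition in the results below was not tested.

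The canonical subunits were the more abundant ones in uncultured cells, and RELA, the main transactivating subunit, held the largest share. At 0 hours RELA ranged from 89.2 to 135 GeTMM with a median of 114. At 48 hours it ranged from 109 to 154 (median 132) in SF and from 92.4 to 138 (median 117) in ISF, so both cultures overlapped the uncultured cells. At 96 hours it had come down to 63.4 to 106 (median 71.8) in SF and 66.2 to 86.4 (median 76.6) in ISF, below every 48-hour library of the same fluid. By 10 days it ranged from 53.6 to 66.7 (median 58.4) in SF and from 42.3 to 74.4 (median 53.7) in ISF. The log2 change from 48 to 96 hours was -0.81 ± 0.15 in SF (FDR 2.31e-05) and -0.56 ± 0.15 in ISF (FDR 0.00453). From 96 hours to 6 days RELA fell further in SF, by 0.57 on the log2 scale (SE 0.15, FDR 0.0205), but the library of Moon held only 15.6 GeTMM, and without it the change was -0.33 with an FDR of 0.0629. The call was also lost without Lurie (FDR 0.0595) or RimRun (FDR 0.112), and the FDR ran from 0.00721 to 0.558 over 19 alternatives.

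NFKB1 encodes the precursor of p50, the usual partner of RELA. It ranged from 31.0 to 43.9 GeTMM (median 39.8) at 0 hours and from 20.02 to 46.9 (median 27.1) in ISF at 10 days, and it had the second narrowest spread of the 10 genes, with the highest group mean 1.41 times the lowest. None of its 12 comparisons between neighbouring times or between fluids passed the threshold. From 0 to 48 hours the difference was -0.27 ± 0.19 in SF (FDR 0.248) and -0.27 ± 0.19 in ISF (FDR 0.231). NFKB1 was lower at 48 hours in 6 of 7 horses in each fluid. That difference was called in 3 of 19 alternatives in SF (FDR 0.00829 to 0.428) and in 1 of 19 in ISF (0.00738 to 0.496). From 6 to 10 days in SF the difference was 0.54 ± 0.19 (FDR 0.0829). It was called with horse as a replicate block (0.56 ± 0.16, FDR 0.0162), and it was 0.31 with an FDR of 0.0685 in the same blocked fit without Moon's day 6 SF library, where NFKB1 stood at 5.63 GeTMM. Its FDR over the alternatives was 0.0162 to 0.606.

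REL, the c-Rel subunit of lymphoid and myeloid cells, followed RELA. Its levels were 26.6 to 51.2 GeTMM (median 31.5) at 0 hours, 33.2 to 61.9 (median 41.9) in SF at 48 hours and 20.7 to 50.6 (median 35.4) in ISF at 48 hours. At 96 hours they were 19.9 to 26.6 (median 23.0) in SF, below every SF library at 48 hours, and 17.4 to 25.9 (median 19.6) in ISF, where 1 library at 48 hours, that of RimRun, lay within the 96-hour range. REL fell between 48 and 96 hours by 0.93 (SE 0.23, FDR 0.00139) in SF and by 0.75 (SE 0.23, FDR 0.0146) in ISF on the log2 scale. The call in ISF was lost when the horses Dreamer (FDR 0.0617), Lurie (FDR 0.0625) or Ollie (FDR 0.0838) were left out, against an FDR range of 1.14e-06 to 0.0838 over 19 alternatives. The early difference from 0 to 48 hours in SF was 0.45 ± 0.23 (FDR 0.106), and without Moon's day 6 SF library, which had 1.70 GeTMM and widened the spread of this gene, it passed the threshold at the same size (FDR 0.00649, range 2.74e-04 to 0.265 over the alternatives).

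**Figure D1:**
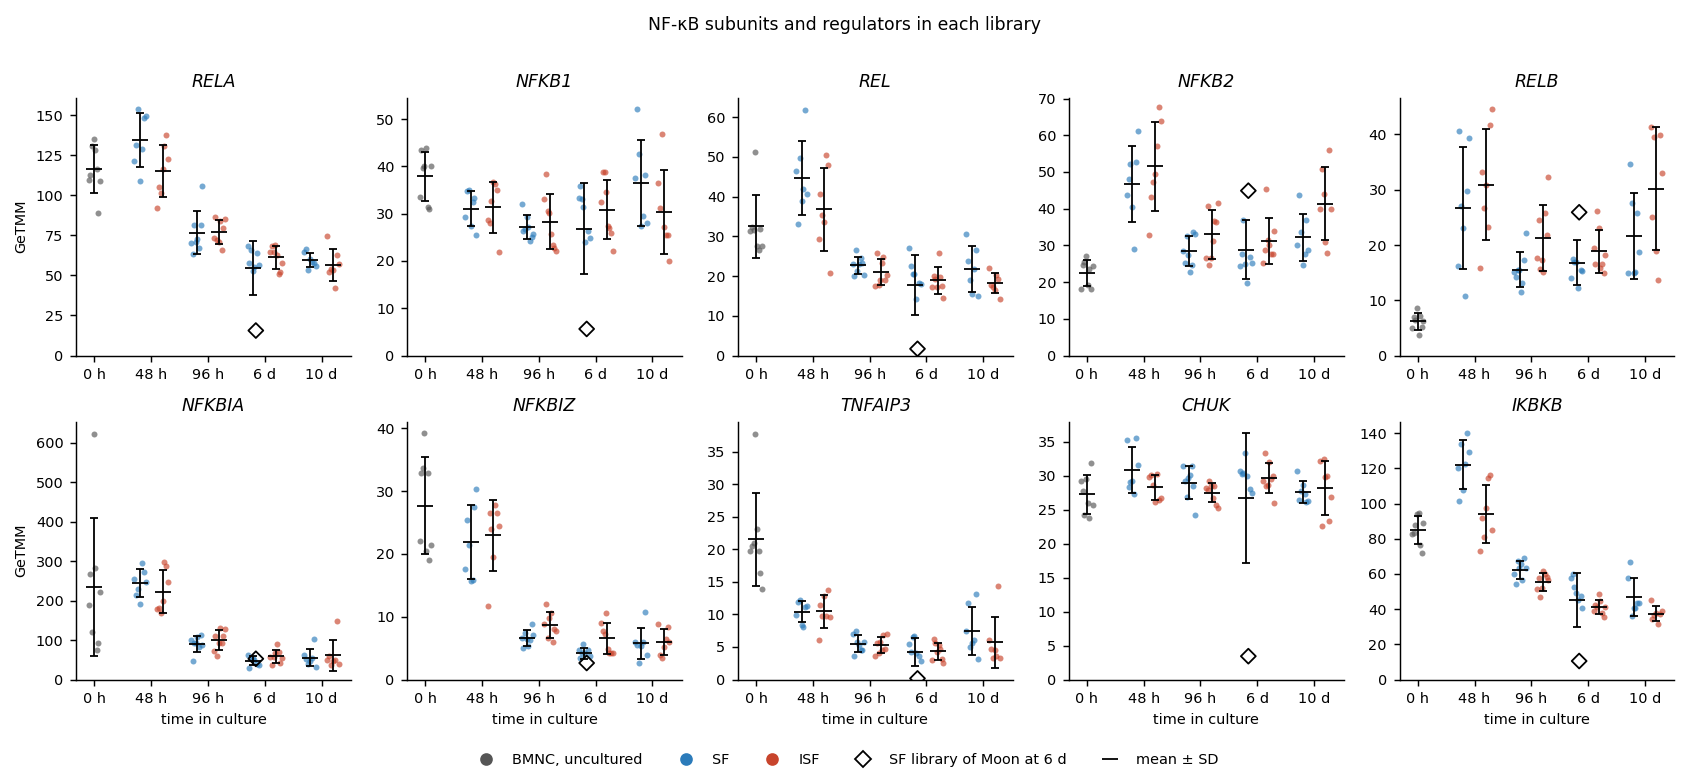
Level of each of the 10 genes in every library, in GeTMM on a linear axis from 0, against time in culture. Grey points are uncultured cells, blue points SF and red points ISF, each point is 1 horse, the black bar is the mean with its SD, and the open diamond is Moon's day 6 SF library. RELB and NFKB2 lie above the uncultured range in every library at 48 hours, whereas RELA, REL, IKBKB, NFKBIA, NFKBIZ and TNFAIP3 are lowest from 96 hours on.

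The non-canonical subunits rose on entry into culture in both fluids. RELB ranged from 3.70 to 8.59 GeTMM (median 6.37) at 0 hours. At 48 hours it ranged from 10.8 to 40.6 (median 27.1) in SF and from 15.9 to 44.6 (median 30.9) in ISF, and no cultured library reached down to the uncultured range. The increase was 1.86 ± 0.22 in SF (3.64-fold, 95% interval 2.69 to 4.93, FDR 1.14e-10) and 2.12 ± 0.22 in ISF (4.34-fold, 95% interval 3.20 to 5.87, FDR 1.28e-12). NFKB2, which supplies p100 and p52, ranged from 18.1 to 27.0 GeTMM (median 24.0) at 0 hours, from 29.0 to 61.0 (median 48.0) in SF and from 32.8 to 67.7 (median 49.4) in ISF at 48 hours, again with no overlap. It rose by 1.00 ± 0.15 in SF (FDR 1.62e-07) and 1.14 ± 0.15 in ISF (FDR 4.36e-09). The increases of RELB and NFKB2 were past the threshold in all 19 alternatives in both fluids.

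Both subunits then lost part of that increase. NFKB2 fell between 48 and 96 hours by 0.68 (SE 0.15, FDR 4.58e-04) in SF and by 0.62 (SE 0.15, FDR 0.00218) in ISF. RELB fell in SF by 0.65 (SE 0.22, FDR 0.0206), a call lost without Dealings (FDR 0.116), Dreamer (FDR 0.0590), Ollie (FDR 0.0586) or RimRun (FDR 0.0525), with an FDR range of 0.00391 to 0.116 over the alternatives. In ISF the RELB difference over the same interval was -0.49 ± 0.22 (FDR 0.109). At 96 hours RELB still ranged from 11.5 to 22.1 GeTMM (median 15.3) in SF and from 15.0 to 32.3 (median 19.7) in ISF, above every uncultured library.

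The levels of RELB in ISF differed widely between horses at 10 days (SD 11.1 GeTMM), as at 48 hours (SD 10.1), and less at 6 days (SD 3.88). At 6 days they were 15.0 to 26.1 GeTMM (median 17.4), and at 10 days 13.6 to 41.4 (median 33.0), with Moon at 13.6 and Lurie at 18.9 below and the other 5 horses at 25.0 to 41.4. The difference between 6 and 10 days was 0.58 ± 0.22 (FDR 0.0802) without a term for horse. With horse as a replicate block, RELB rose by 0.59 ± 0.19 (FDR 0.0223), in a fit that called 6.95% of all genes higher. Leaving out Moon had the same effect on the call, with 0.72 and an FDR of 0.0193, and the FDR over the alternatives was 0.0113 to 0.330. In SF the range was 12.2 to 25.9 GeTMM at 6 days and 14.9 to 34.6 (median 18.8) at 10 days.

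The balance between the subunit RNAs shifted along with these levels. Processing of p100 to p52, nuclear NF-κB and pathway activity were not measured here. Of the summed level of the 5 subunits, RELB and NFKB2 together made up 13.3% ± 1.60 (SD, n = 8) at 0 hours. Their share was 25.6% ± 5.11 (n = 7) in SF and 30.7% ± 4.81 (n = 7) in ISF at 48 hours, and 31.1% ± 3.99 in SF and 40.0% ± 5.57 in ISF (n = 7 each) at 10 days. The share of RELA moved the other way, from 54.0% ± 2.72 (n = 8) at 0 hours to 35.3% ± 4.76 in SF and 32.2% ± 3.43 in ISF (n = 7 each) at 10 days. NFKB1 held 17.6% ± 1.84 of the sum at 0 hours and 17.2% ± 3.91 in ISF at 10 days. These shares are descriptions without a test, and at 6 days in SF the library of Moon alone had a non-canonical share of 75.5%.

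**Figure D2:**
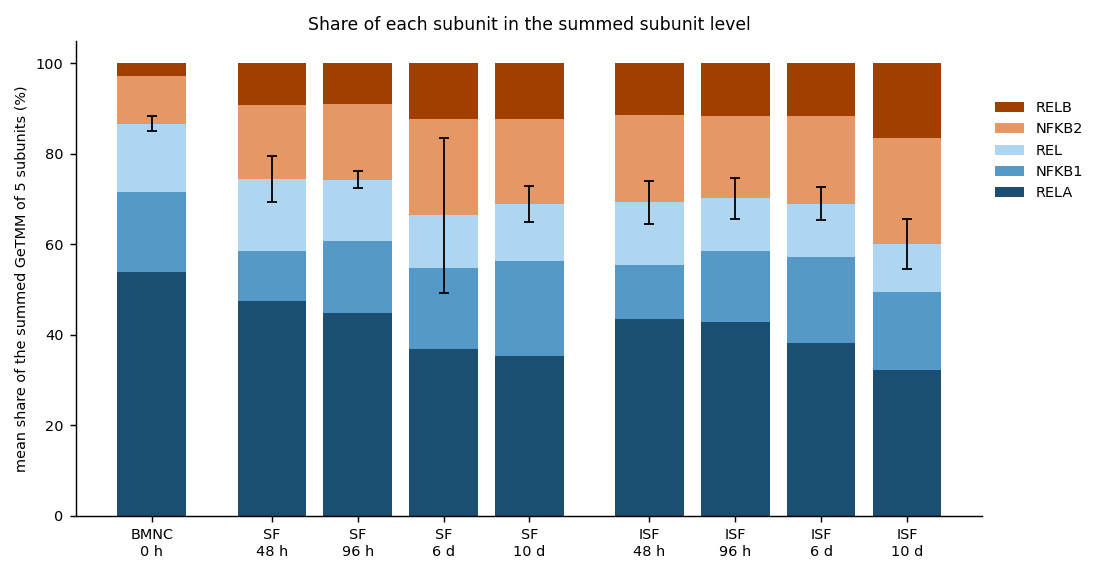
Mean share (%) of each subunit in the summed GeTMM of the 5 subunits in each of the 9 groups, stacked, with canonical subunits in blue and non-canonical subunits in orange and brown. The black bars are the SD of the non-canonical share, which is 13.3% in uncultured cells and 40.0% in ISF at 10 days, and the wide bar in SF at 6 days reflects the library of Moon.

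Within horses, the ratio of RELB to RELA was nearly always higher in ISF than in SF. This held for 7 of 7 horses at 48 hours and for 8 of 8 at 96 hours, and later for 6 of 8 (6 days) and 6 of 7 (10 days). Without the ISF pairs of Dealings and Dreamer at 96 hours it was higher in 6 of 6, and without Moon at 6 days in 6 of 7. The group medians of the ratio were 0.0582 at 0 hours, 0.201 in SF and 0.265 in ISF at 48 hours, then 0.211 and 0.259 (96 hours), 0.263 and 0.307 (6 days) and 0.336 and 0.556 (10 days). The ranges of the fluids overlapped at each of these times. The ratio of NFKB2 to NFKB1 was higher in ISF in 4 of 7, 5 of 8, 6 of 8 and 7 of 7 horses in order of time. At 10 days its median was 0.904 in SF and 1.14 in ISF. A ratio of genes within a library does not depend on how libraries were scaled. It was examined after the levels had been seen and was not tested.

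**Figure D3:**
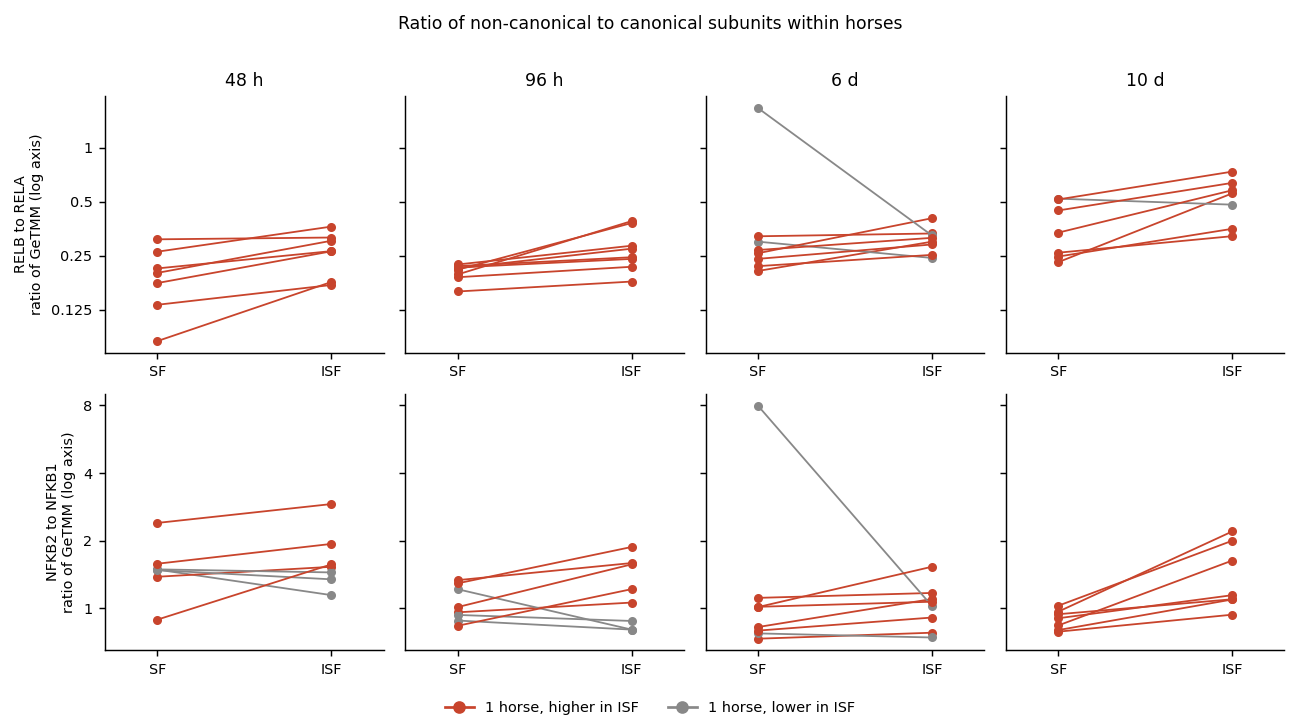
Ratio of RELB to RELA (top) and of NFKB2 to NFKB1 (bottom), as GeTMM over GeTMM on a log axis, in the SF and the ISF library of each horse at the 4 times. Each line is 1 horse, red where the ratio was higher in ISF and grey where it was lower, and the steep grey line at 6 days is Moon. The RELB to RELA lines are red in 7 of 7 horses at 48 hours and 8 of 8 at 96 hours.

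The regulators that NF-κB itself induces were high early and low from 96 hours on. NFKBIA, the IκBα inhibitor that returns RELA to the cytoplasm, was the most abundant of the 10 genes on the mean of all libraries (122 GeTMM). At 0 hours it ranged from 74.6 to 622 GeTMM with a median of 205, the widest range in absolute GeTMM of these genes and groups, and the highest value was that of Flash. It ranged from 191 to 296 (median 248) in SF and from 169 to 298 (median 198) in ISF at 48 hours. At 96 hours every library was lower, with 45.9 to 114 (median 92.4) in SF and 59.4 to 130 (median 102) in ISF. The log2 change was -1.45 ± 0.27 in SF (FDR 1.94e-05) and -1.16 ± 0.27 in ISF (FDR 8.83e-04).

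From 96 hours to 6 days NFKBIA fell again in SF, by 0.91 (SE 0.26, FDR 0.0400), and it was lower at 6 days in 8 of 8 horses. This call held in 10 of 19 alternatives, and the FDR without each horse reached 0.144 (RimRun), while the log2 change stayed between -0.99 and -0.83. In ISF the difference was -0.76 ± 0.26 (FDR 0.0640), and it was past the threshold with horse as a replicate block (FDR 0.0390), where 5.68% of all genes were lower, and without Moon's day 6 SF library (FDR 0.0452). The FDR ran from 0.0247 to 0.192 over the alternatives. The difference from 0 to 48 hours was 0.35 ± 0.27 in SF (FDR 0.299), and 0.65 with an FDR of 0.0480 without the horse Flash, the range of the FDR over the alternatives being 0.0480 to 0.663.

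NFKBIZ encodes IκBζ, a nuclear IκB protein that works with p50 on secondary response genes. Its group means covered the widest range of the 10 genes, 6.65-fold from 4.16 to 27.7 GeTMM. It ranged from 19.0 to 39.2 GeTMM (median 27.4) at 0 hours, from 15.8 to 30.4 (median 21.5) in SF and from 11.8 to 27.8 (median 24.5) in ISF at 48 hours, and from 4.98 to 8.90 (median 6.60) in SF and 6.04 to 12.05 (median 8.48) in ISF at 96 hours. The groups at 48 and 96 hours did not overlap in SF, and in ISF 1 library at 48 hours, that of Catnip, lay within the 96-hour range. It fell by 1.56 (SE 0.20, FDR 6.69e-09) in SF and 1.29 (SE 0.20, FDR 1.77e-06) in ISF on the log2 scale, and these calls held in all 19 alternatives.

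TNFAIP3, the ubiquitin-editing enzyme A20, fell from the first interval on. It ranged from 14.0 to 37.7 GeTMM (median 20.1) at 0 hours, from 8.07 to 12.3 (median 11.2) in SF and from 6.07 to 13.8 (median 9.83) in ISF at 48 hours, with no overlap. It fell by 0.94 (SE 0.25, FDR 0.00163) in SF and by 0.95 (SE 0.25, FDR 0.00110) in ISF. It fell once more between 48 and 96 hours, by 0.82 (SE 0.25, FDR 0.0102) in SF, to 3.63 to 7.49 GeTMM (median 5.54), and by 0.86 (SE 0.25, FDR 0.00997) in ISF, to 3.65 to 6.96 (median 5.17). The SF step had an FDR of 0.0540 without Dealings. From 6 to 10 days in SF the difference was 0.76 ± 0.25 (FDR 0.0618). With horse as a replicate block it passed the threshold (FDR 0.0290) in a fit that called 6.07% of all genes higher, and in the blocked fit without Moon's day 6 SF library, which had 0.173 GeTMM, it was 0.52 with an FDR of 0.145. It was also called without Flash (FDR 0.0473) or RimRun (FDR 0.0453), and the range over the alternatives was 0.0290 to 0.543.

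The kinases differed from each other. CHUK, the IKKα subunit that the non-canonical pathway needs, was the steadiest of the 10 genes, with group means from 26.7 to 30.9 GeTMM, 1.16-fold apart. It ranged from 23.8 to 31.9 GeTMM (median 26.8) at 0 hours and from 22.6 to 32.4 (median 29.9) in ISF at 10 days. It passed no threshold in the unweighted fit of all libraries without a horse term. Without Moon's day 6 SF library, where CHUK was 3.44 GeTMM against 27.4 to 33.4 in the other 7, its spread narrowed and the difference from 0 to 48 hours in SF of 0.17 (1.13-fold) was called (FDR 0.0261, range 0.00645 to 0.605 over the alternatives, 3 of 19 past the threshold, library weights among them).

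IKBKB, the IKKβ subunit of the canonical pathway, was not steady. It ranged from 71.9 to 94.6 GeTMM (median 85.6) at 0 hours and from 101 to 140 (median 123) in SF at 48 hours, with no overlap, and it rose by 0.52 ± 0.16 in SF (FDR 0.00750). In ISF at 48 hours it ranged from 73.2 to 116 (median 92.0), a difference of 0.13 ± 0.16 from uncultured cells (FDR 0.518). It then fell in both fluids to 54.1 to 68.9 (median 63.4) in SF and 46.8 to 61.8 (median 57.0) in ISF at 96 hours, by 0.95 (SE 0.16, FDR 5.53e-06) and 0.74 (SE 0.16, FDR 5.83e-04), and every 96-hour library lay below every 48-hour library of its fluid. From 96 hours to 6 days it fell in SF by 0.58 (SE 0.16, FDR 0.0311), which was -0.31 with an FDR of 0.0821 without the library of Moon. That call was lost as well without Dreamer, Flash, Lurie, Ollie or RimRun (FDR 0.0519 to 0.117), with a range of 0.0106 to 0.593 over the alternatives. Over the same interval in ISF it was -0.42 ± 0.16 (FDR 0.102), and without that SF library, at the same size, the FDR was 0.00159 (range 4.56e-04 to 0.276).

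Counted over the 10 genes, the first 48 hours in SF brought 3 higher (IKBKB, NFKB2 and RELB) and 1 lower (TNFAIP3), beside 22.3% of all tested genes higher and 23.1% lower. Without Moon's day 6 SF library 5 were higher, REL and CHUK in addition, beside 26.4% of all genes. In ISF 2 were higher (NFKB2 and RELB) and 1 lower (TNFAIP3), beside 25.3% higher and 27.4% lower. With so few genes these counts are not read as particular to the 10.

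The interval from 48 to 96 hours was one of lower levels. In SF, 8 of the 10 genes were lower and none higher, beside 15.8% of all genes lower and 11.5% higher, and the median log2 change of the 10 was -0.82 against 0.02 for all genes. In ISF, 7 were lower and none higher, beside 10.4% lower and 8.54% higher, with a median of -0.68 against 0.01. NFKB1 and CHUK were the exceptions in both fluids, and RELB in ISF. The count stayed between 6 and 8 in each fluid under all alternatives.

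After 96 hours fewer of these genes moved. From 96 hours to 6 days in SF 3 were lower (IKBKB, NFKBIA and RELA), beside 1.61% of all genes lower and 0.432% higher, and none were called without Moon's day 6 SF library, where 0.981% of all genes were lower. In ISF none of the 10 were called by limma, beside 3.54% lower and 2.83% higher. At an unadjusted p under 0.05 were 4 of the 10 and 2890 of all 14570 genes. Without that SF library 3 of the 10 were lower (RELA, NFKBIA and IKBKB), beside 6.20%. From 6 to 10 days none were called in SF, beside 3.19% higher and 1.59% lower, or in ISF, beside 5.09% higher and 5.44% lower. In each fluid 2 of the 10 genes were at an unadjusted p under 0.05, beside 3283 of all 14570 genes in SF and 3195 in ISF. On recovered reads, limma voom called none of the 10 in ISF after 96 hours, or in SF from 6 to 10 days.

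**Figure D4:**
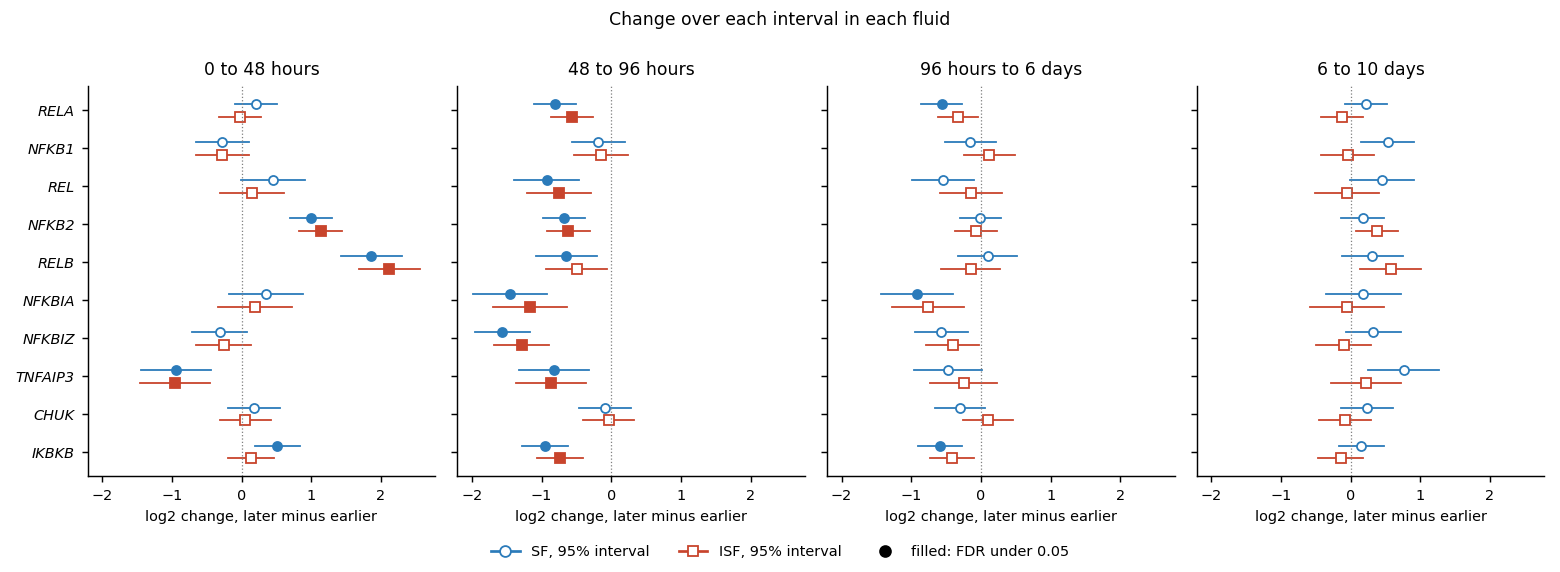
Log2 change of each gene over 4 consecutive intervals, later minus earlier time, on the log2(GeTMM + 1) scale with 95% intervals, in SF (blue circles) and ISF (red squares). Filled symbols have an FDR under 0.05. From 0 to 48 hours NFKB2 and RELB lie to the right and TNFAIP3 to the left, and from 48 to 96 hours 8 genes in SF and 7 in ISF are filled on the left.

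The study's question was how inflamed fluid changes these cells, and the 10 genes were counted at each time. At 48 hours none of the 10 were called by limma, beside 0.872% of all genes higher and 0.810% lower in ISF. At an unadjusted p under 0.05 were 1 of the 10 and 2035 of all 14570 genes. At 96 hours none were called, beside 6.16% higher and 4.30% lower. Here 0 of the 10 and 3502 of all genes were at an unadjusted p under 0.05. At 6 days 1 was called, NFKBIZ, higher in ISF, beside 16.7% higher and 13.6% lower. At 10 days none were called, beside 9.95% higher and 10.8% lower. Here 1 of the 10 and 4755 of all 14570 genes were at an unadjusted p under 0.05. On recovered reads, limma voom called 0 of the 10 at each of the 4 times. Counts this small cannot be set apart from the shares of all genes.

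NFKBIZ at 6 days ranged from 2.63 to 5.66 GeTMM (median 4.21) in SF and from 4.23 to 10.6 (median 6.04) in ISF. The groups overlapped, and it was higher in ISF in 7 of 8 horses. The difference was 0.50 ± 0.19 (1.42-fold, 95% interval 1.09 to 1.84, FDR 0.0384). It was past the threshold in 7 of 19 alternatives, with an FDR from 0.0198 to 0.147 and a log2 difference from 0.37 to 0.59. It was not past it without Catnip, Dealings, Dreamer, Flash or Moon (FDR 0.0518 to 0.119), nor without the SF library of Moon alone (FDR 0.0757).

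IKBKB was lower in ISF than in SF within most horses: in 7 of 7 at 48 hours, 6 of 8 at 96 hours, 6 of 8 at 6 days and 6 of 7 at 10 days. With all libraries the difference was -0.38 ± 0.17 at 48 hours (FDR 0.271), -0.0038 ± 0.16 at 6 days (0.997-fold, FDR 0.991) and -0.30 ± 0.17 at 10 days (FDR 0.213). In Moon at 6 days in SF it stood at 10.5 GeTMM against 40.5 to 59.8 in the other 7 horses, and since the spread of a gene was estimated over all groups, that library widened every interval for this gene. At 6 days it also set the size of the difference, which lay between -0.27 and 0.07 over the alternatives. Without it the difference was -0.38 ± 0.099 at 48 hours (0.768-fold, FDR 0.0143, beside 2.81% of all genes lower), -0.27 ± 0.096 at 6 days (0.828-fold, FDR 0.0211, beside 18.4%) and -0.30 ± 0.099 at 10 days (0.812-fold, FDR 0.0174, beside 14.6%). At 96 hours it was -0.17 ± 0.092 (FDR 0.218). Over the 19 alternatives the FDR ran from 5.15e-04 to 0.627 at 48 hours (4 of them past the threshold), from 0.0191 to 1 at 6 days (4) and from 0.0156 to 0.563 at 10 days (3).

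For the other genes the intervals limit what could be seen. RELB was higher in ISF in 8 of 8 horses at 96 hours, with a difference of 0.41 ± 0.21 (1.33-fold, 95% interval 0.989 to 1.78, FDR 0.232), and at 10 days in 5 of 7 horses, with 0.43 ± 0.23 (1.35-fold, 95% interval 0.987 to 1.85, FDR 0.174). NFKB2 was higher in 7 of 7 horses at 10 days, with 0.34 ± 0.16 (1.27-fold, 95% interval 1.02 to 1.58, FDR 0.121), and at 6 days in all 7 horses other than Moon. At 10 days its FDR ran from 0.0339 to 0.242 over the alternatives, with 1 of 19 past the threshold. NFKB1 at 10 days was lower in ISF in 6 of 7 horses, at -0.27 ± 0.20 (FDR 0.370). Its FDR ran from 0.0387 to 0.638, also with 1 of 19 past the threshold. For NFKBIA the 95% interval at 10 days reached from 0.712-fold to 1.53-fold, and for CHUK from 0.776-fold to 1.32-fold, or from 0.919-fold to 1.12-fold without Moon's day 6 SF library. The 2 library pairs of Dealings and Dreamer at 96 hours are in these counts, and without them RELB was higher in 6 of 6 horses.

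**Figure D5:**
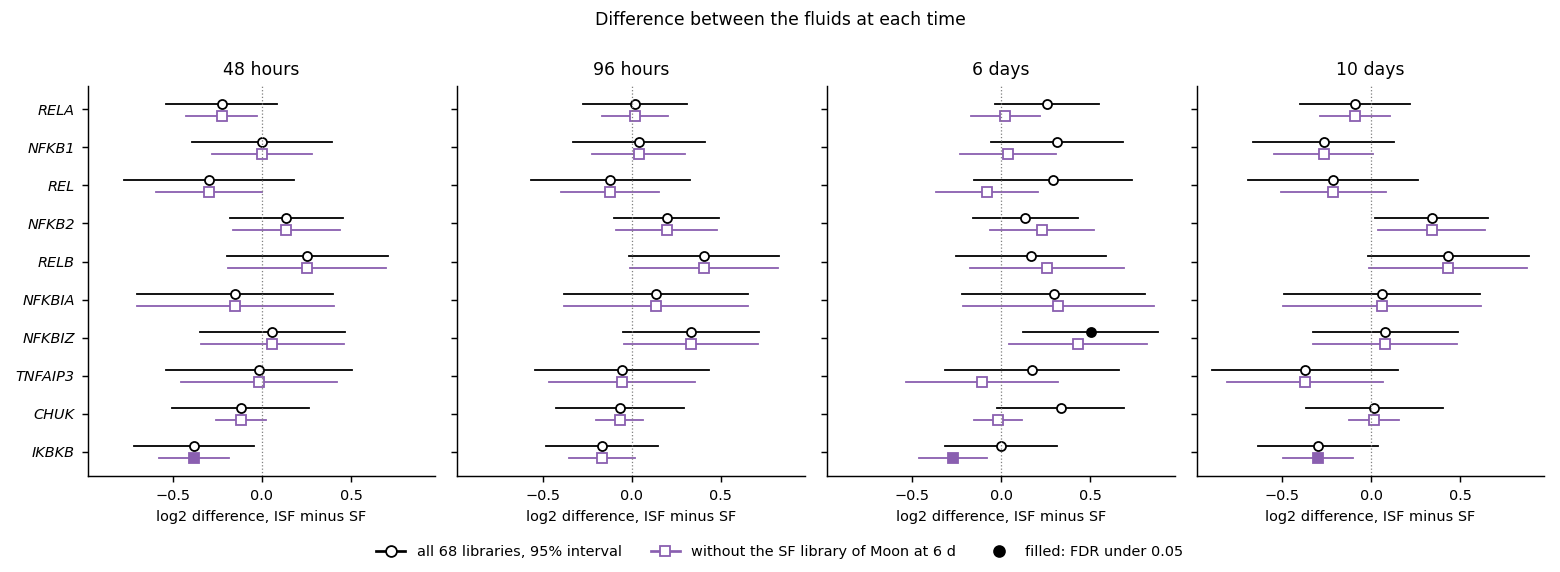
Log2 difference between ISF and SF for each gene at the 4 times, with 95% intervals, in all 68 libraries (black circles) and without Moon's day 6 SF library (purple squares). Filled symbols have an FDR under 0.05. With all libraries NFKBIZ at 6 days is the filled circle, and without that library IKBKB is filled at 48 hours, 6 days and 10 days.

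Whether the difference between fluids itself changed over time was tested with an interaction. For none of the 10 genes did it pass the threshold from 48 to 96 hours (0.0206% of all genes did), from 96 hours to 6 days (0%), from 6 to 10 days (0.226%) or from 48 hours to 10 days (2.99%). The numbers at an unadjusted p under 0.05 were 0, 0, 1 and 0 of 10, beside 806, 881, 1989 and 2401 of all 14570 genes. With limma voom none of the 10 were called. The smallest p was that of NFKB1 from 6 to 10 days, where the fluid difference changed by -0.58 ± 0.27 (FDR 0.323), and by -0.30 without Moon's day 6 SF library, with an FDR of 0.134 to 0.694 over the alternatives.

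The wider pathway was described by its counts. Of 56 further components (receptors, adaptors, kinases, inhibitors and ubiquitin enzymes), 53 were tested. At 48 hours none were called by limma, with 5 at an unadjusted p under 0.05 beside 2035 of all 14570 genes. Of these components 0 were called by limma voom, and 2 were called without Moon's day 6 SF library. At 96 hours 5 were higher and 1 lower in ISF, at 6 days 12 higher and 5 lower, and at 10 days 6 higher and 5 lower. All tested genes had 6.16% higher and 4.30% lower, 16.7% and 13.6%, and 9.95% and 10.8% at these times. The medians of the pathway genes were 0.06, 0.08 and 0.08 against 0.00, 0.00 and -0.02 over all genes. From 48 to 96 hours 21 were lower and 3 higher in SF, beside 15.8% and 11.5% of all genes, and 15 lower and 4 higher in ISF, beside 10.4% and 8.54%. In the first 48 hours 14 were higher and 7 lower in SF, beside 22.3% and 23.1%, and 13 higher and 11 lower in ISF, beside 25.3% and 27.4%.

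The rule for named genes picked 3 receptors of the TNF receptor superfamily. Differences of single pathway and target genes, here and below, are from the fit with all libraries, which includes Moon's day 6 SF library. No alternative fit is given for these genes one by one. TNFRSF11A, the receptor RANK of osteoclast precursors, was 2.68 to 5.75 GeTMM (median 3.83) in SF and 2.68 to 19.1 (median 11.5) in ISF at 96 hours, higher by 1.01 ± 0.31 (2.02-fold, FDR 0.0254), and at 6 days higher by 1.26 ± 0.31 (2.40-fold, FDR 0.00127). TNFRSF12A, the receptor of TWEAK, was 0.847 to 2.59 GeTMM (median 1.57) in SF and 3.77 to 11.9 (median 7.89) in ISF at 96 hours with no overlap, higher by 1.72 ± 0.35 (3.31-fold, FDR 3.37e-04), and higher by 1.23 ± 0.35 at 6 days (FDR 0.00438). TNFRSF13C, the receptor of the B cell survival factor BAFF, went the other way, lower by 1.15 ± 0.39 at 6 days (FDR 0.0196) and by 1.97 ± 0.42 at 10 days (FDR 3.53e-04), in samples whose B cell markers (4 of 5 with an entry) summed to 6.10 to 139 GeTMM in SF and 1.42 to 10.2 in ISF at 10 days. At 6 days that sum was 11.8 to 115 in SF and 1.29 to 29.6 in ISF. The part of lymphocyte number in these values was not tested. Of the other receptors listed, singled out after their values were seen, LTBR, the lymphotoxin beta receptor, was higher in ISF at 96 hours (0.49, FDR 0.00276) and 6 days (0.58, FDR 9.51e-05), and CD40 was higher at 6 days (0.69, FDR 4.88e-04).

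Among signalling components, TAB1, a partner of the kinase TAK1 upstream of IKBKB, was lower in ISF, with a mean of 22.9 GeTMM against 38.7 in SF at 96 hours (-0.74 ± 0.22, FDR 0.0236) and 18.6 against 46.1 at 6 days (-1.16 ± 0.22, FDR 5.22e-05). IRAK3, a macrophage brake on Toll-like receptor signalling, was lower at 10 days, with 2.32 to 10.8 GeTMM (median 3.34) in ISF and 5.10 to 20.01 (median 6.97) in SF (-1.06 ± 0.28, FDR 0.00447). TNIP1, which works with A20, and NKIRAS1, which slows the loss of IκB, were higher in ISF at 10 days, by 0.56 ± 0.16 (FDR 0.00749) and by 0.69 ± 0.17 (FDR 0.00205). Of genes singled out after their values were seen, MAP3K14, the kinase NIK that starts the non-canonical pathway, fell between 48 and 96 hours in SF (-1.16, FDR 6.30e-06) and in ISF (-0.99, FDR 1.75e-04), and at 10 days it had a mean of 2.67 GeTMM in ISF and 5.56 in SF (-0.84, FDR 0.00196). IKBKG, the scaffold of the kinase complex, was called in none of the 12 comparisons and had group means of 14.5 to 20.1 GeTMM.

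Textbook target genes of NF-κB differed between the fluids in both directions. Of 52 listed, 44 were tested. In ISF 4 were higher and 0 lower at 48 hours, 8 higher and 2 lower at 96 hours, 19 higher and 3 lower at 6 days, and 13 higher and 7 lower at 10 days. Beside them, 0.872% of all genes were higher and 0.810% lower at the first of these times, then 6.16% and 4.30%, 16.7% and 13.6%, and 9.95% and 10.8%. Their median log2 difference was 0.03, 0.29, 0.69 and 0.43, against -0.02, 0.00, 0.00 and -0.02 for all genes. Over the interval in which the subunits fell, from 48 to 96 hours, 11 targets were lower and 4 higher in SF, beside 15.8% and 11.5% of all genes, and 11 lower and 6 higher in ISF, beside 10.4% and 8.54%. In the first 48 hours 18 were higher and 8 lower in SF, beside 22.3% and 23.1%, and 18 higher and 9 lower in ISF, beside 25.3% and 27.4%.

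CCL2, the monocyte chemoattractant, ranged from 192 to 577 GeTMM (median 239) in SF and from 840 to 4899 (median 1142) in ISF at 48 hours, without overlap, and was higher by 2.39 ± 0.40 (FDR 1.81e-04). At 6 days it ranged from 342 to 1596 (median 468) in SF and from 5264 to 13874 (median 8317) in ISF, higher by 4.01 ± 0.37 (16.1-fold, FDR 1.07e-12). TNFAIP6, the hyaluronan-binding protein TSG-6, ranged from 4.95 to 18.1 GeTMM (median 12.5) in SF and from 167 to 372 (median 208) in ISF at 6 days, higher by 4.10 ± 0.38 (17.1-fold, FDR 1.37e-12), and by 3.31 ± 0.38 at 96 hours (FDR 5.63e-09). VCAM1, an adhesion molecule, was higher by 2.40 ± 0.59 at 48 hours (FDR 0.0165), with overlapping groups of 1.20 to 18.0 GeTMM in SF and 3.27 to 194 in ISF. At 10 days the highest were CXCL8, the neutrophil chemokine, by 2.81 ± 0.48 (7.01-fold, FDR 1.28e-05), and the gelatinase MMP9, by 2.58 ± 0.43 (5.99-fold, FDR 7.27e-06).

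The targets that were lower in ISF were led by lymphocyte products. LTB, lymphotoxin beta, was 6.68 to 32.3 GeTMM (median 14.5) in ISF and 20.6 to 85.6 (median 45.9) in SF at 96 hours (-1.43 ± 0.38, FDR 0.00821), and 0.393 to 5.82 against 7.34 to 71.8 at 10 days without overlap (-2.92 ± 0.41, FDR 2.60e-07). CCL5, a T cell chemokine, was lower by 1.29 ± 0.51 at 6 days (FDR 0.0479) and by 1.53 ± 0.55 at 10 days (FDR 0.0373). TNFAIP2, a TNF-induced endothelial and myeloid gene, was lower by 0.61 ± 0.18 at 96 hours (FDR 0.0212). T cell markers summed to 31.5 to 213 GeTMM in SF and 18.7 to 77.6 in ISF at 96 hours, and their part in the LTB and CCL5 values was not tested.

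By likeness of profile, measured as the root mean square difference of centred log2 values over all 68 libraries among 8632 named genes, the genes nearest to NFKB2 were TNIP2 (0.23), CEBPG (0.29) and WDR45 (0.31). The nearest to RELB were TNFRSF1B (0.42), AARS1 (0.42) and NFKB2 (0.42), so NFKB2 had rank 3 for RELB, although RELB ranked 281 for NFKB2. The nearest to NFKBIA were MIDN (0.47), RARA (0.50) and FAM220A (0.51), with NFKBIZ at rank 16, IKBKB at 146 and RELA at 183, and RELB at 6245. The root mean square size of the profile itself was 0.436 for NFKB2, 0.724 for RELB and 1.00 for NFKBIA. A gene without any change would lie at that distance, and RELB lay 0.423 from NFKB2, hardly nearer. These ranks share the libraries and time course of all genes and are a description.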

How the data were processed

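Per the labels and the study's methods, stranded paired-end libraries were sequenced, trimmed with TrimGalore, aligned to EquCab3.0 with STAR 2.7.2a and counted per gene, and the authors then used edgeR to make GeTMM values, an RPKM-like unit (read count over gene length, scaled by TMM library factors), which they deposited unlogged and unpooled. The strand setting of the counting is not given in the sources used here, and no other gene overlaps a member in a RefSeq gene table of another horse assembly. Reads on genes were recovered from the steps between the deposited values, which were whole within 0.02 reads for 24065 of 24065 genes above 0 (100%), and limma voom on those reads called 2383 genes higher and 1904 lower in ISF at 6 days. The fewest reads on a member in 1 library were 6, for TNFAIP3. A common whole factor of a library or gene cannot be seen in this way, and counting error grows as reads become few.

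Values were taken as log2(GeTMM + 1). Genes reaching 0.5 GeTMM in 7 or more libraries (14570) entered limma 3.58.1 (R 4.3.3, two-sided moderated test with a mean trend), in 1 fit of 68 libraries and 9 groups with no term for horse. The 16 comparisons were ISF with SF at 4 times, 4 intervals in each fluid, and 4 interactions. Libraries bearing the same horse name come from the same animal and therefore pair across groups. Each library was correlated with a mean profile of each horse, taken from libraries of the other groups. The 200 genes that differed most between horses were chosen anew for each library. By this check 66 of 68 libraries lay nearest to the profile of their own horse, the exceptions being Dealings and Dreamer in ISF after 96 hours. Fits with horse as a block, on recovered reads with voom, with another pseudocount (0.1), filter, scaling, weighting or group selection, and without single horses or doubtful libraries were the alternatives.

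Named genes were all 10 members, from the lists of pathway components and targets the 2 highest and 2 lowest called log2 differences between fluids at each time with at least 5 GeTMM in 1 group, and the 3 genes nearest in profile to NFKB2, RELB and NFKBIA. The members and lists were chosen with earlier results of these data known. Marker lists were macrophage (CD68, CD163, MRC1, GPNMB, SPP1, TREM2, MSR1), neutrophil precursor (MPO, ELANE, PRTN3, AZU1, CAMP, LTF, OLFM4, CEBPE), T cell (CD3D, CD3E, CD3G, CD2, LCK) and fibroblast or stromal genes (COL1A1, COL1A2, COL3A1, DCN, LUM). Python 3.11.15, numpy 2.4.6, pandas 2.3.3 and matplotlib 3.10.9 were used for the remaining values and the figures. Coordinates and sequences were not used here.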

Additional observations from a re-analysis of the deposited data

Results flagged for a closer look

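In groups of 7 or 8 libraries, a value was singled out when its gap to the nearest other library was above Dixon's 95% critical value. This happened in 15 of 90 combinations of gene and group, and chance flags about 1 in 20.

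Moon's day 6 SF library accounted for 5 of them, with the lowest NFKB1 (5.63 GeTMM, others 23.9 to 35.8), RELA (15.6, others 52.9 to 68.6), CHUK (3.44, others 27.4 to 33.4) and IKBKB (10.5, others 40.5 to 59.8) and the highest RELB (25.9, others 12.2 to 17.4). The library of Flash at 0 hours held the highest REL (51.2 GeTMM, others 26.6 to 32.4), NFKBIA (622, others 74.6 to 283) and TNFAIP3 (37.7, others 14.0 to 23.1). At 10 days Ollie held the highest NFKBIA in SF (102 GeTMM, others 32.7 to 61.0) and in ISF (149, others 36.3 to 60.1), the highest NFKBIZ in SF (10.8, others 2.69 to 5.94) and the highest TNFAIP3 in ISF (14.4, others 3.26 to 6.15).

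The remaining values were NFKB2 in the ISF library of Dreamer at 6 days (45.4 GeTMM, others 25.3 to 33.9), RELA in the SF library of RimRun at 96 hours (106, others 63.4 to 81.5) and NFKBIA in the SF library of Dealings at 96 hours (45.9, the lowest, others 81.9 to 114).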

How the results depend on the processing

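Of 3040 values for single genes under 19 alternatives (18 planned and 1 added after seeing the data), 2942 kept their side of the threshold, 41 lost it, 57 gained it and 0 reversed, and of 608 counts 544 stayed within 1.5 times. No scaling moved the median of all genes by over 0.1. The share of all genes called also differed between settings. At 48 hours 0.810% of all genes were lower in ISF with all libraries, and 2.81% without Moon's day 6 SF library. The counts that follow are given without that share for each setting, so they are not read as particular to the listed genes. Beyond what the settings leave out, the cause of these counts was not tested. For the 10 genes, ISF against SF at 48 hours gave 2 with library weights, 1 without Moon's day 6 SF library and 1 without it under the horse block, at 6 days 0 with no filter, only the groups compared, median-of-ratios scaling or voom, and at 10 days 1 without that library and 3 without it under the block. With library weights the 6-day call was IKBKB instead of NFKBIZ. From 96 hours to 6 days ISF gave 1 under the block and 3 with only the groups compared, weights, or without Moon's library with or without the block, and SF gave 1 with only the groups compared and 0 without Moon's library. From 6 to 10 days ISF gave 1 under the block, 1 under the block without the 96-hour ISF libraries of Dealings and Dreamer and 2 under it without Moon's library, and SF gave 2 under the block and 2 under it without Dealings and Dreamer. From 0 to 48 hours SF gave 8 with weights and 7 under the block without Moon's library. For pathway genes, ISF against SF gave at 48 hours 10 with weights, 2 without Moon's library and 3 with the block too, at 96 hours 12 with only the groups compared, 18 with weights, 10 without Moon's library and 13 with the block too, at 6 days 7 with only the groups compared, and at 10 days 23 under the block without Moon's library. They gave 32 with weights in ISF from 48 to 96 hours, and in SF from 0 to 48 hours 34 with weights and 32 under the block without Moon's library. For targets, ISF against SF gave at 48 hours 2 with no filter, 10 with weights and 8 under the block without Moon's library, and 18 with weights at 96 hours. Leaving out each horse in turn gave 0 to 1 of the 10 genes between fluids at 48 hours, 6 days and 10 days, 0 to 3 in ISF from 96 hours to 6 days, 0 to 2 in ISF from 6 to 10 days, 0 to 2 in SF from 96 hours to 6 days and 0 to 1 in SF from 6 to 10 days. It gave 0 to 2 pathway genes at 48 hours, 7 to 17 at 10 days and 12 to 23 in ISF from 48 to 96 hours, and 1 to 4 targets at 48 hours and 13 to 21 at 10 days. The replicate block with horse changed 4 single-gene calls, all given beside their results (NFKB1 and TNFAIP3 in SF and RELB in ISF from 6 to 10 days, NFKBIA in ISF from 96 hours to 6 days), and no other. The 6 reads behind the lowest TNFAIP3 value limit its precision.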

Other observations

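At 0 hours Flash had the highest value of 7 of the 10 genes (NFKB2, RELA, RELB, REL, NFKBIA, NFKBIZ and TNFAIP3), of 16 of the 53 pathway components, of 10 of the 44 targets and of 15.9% of all tested genes. At 10 days Dealings was highest for 5 of the 10 genes in SF (19.2% of all tested genes) and Catnip for 5 in ISF (22.1%), while Ollie was highest for 3 in each fluid (11.7% of all tested genes in SF and 13.3% in ISF), among them NFKBIA and TNFAIP3 in both. These counts were made after the values had been seen and were not tested, and genes of 1 library share its RNA and scaling.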
